A study of Mus musculus with 59 samples.

Results

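Poly(I:C) and lipopolysaccharide (LPS) were compared in primary mouse microglia lacking Tbk1. The libraries were taken by their titles: 5 labelled KO pIC (poly(I:C)) and 5 labelled KO LPS, 10 of the 59 libraries in the series. Microglia were purified from P0/P1 pups and cultured for 16 h. They then received LPS at 100 ng/mL, or poly(I:C) whose dose the sources used here do not state, for 24 h before mRNA sequencing. KO cells were Tbk1fl/fl and carried Cx3CR1-Cre, so recombination was driven from the Cx3CR1 locus. HET cells were Tbk1fl/+ with Cx3CR1-Cre, and WT cells were Tbk1fl/fl without Cre, so a comparison of KO with WT also compares Cre with no Cre. Each group was 5 cultures that the study calls independent, and KO untreated cultures (5 libraries) give the level without a stimulus.

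The KO pIC and KO LPS libraries stand in separate deposited tables, and no table holds both stimuli, so stimulus and table cannot be told apart in the direct comparison. No p-value is given for it. A difference was called large where mean log2(TPM + 1) differed by at least 2 (TPM is a transcript level scaled by length and library; 2 on this scale is 4-fold for abundant genes), on the TPM scale and after a second scaling by median ratios. The 5 libraries of one stimulus also had to lie wholly above the 5 of the other, with 5 TPM or more on average on the higher side. The test that the design does allow asks whether the poly(I:C) minus LPS difference was itself different in KO and in WT. An offset between tables that is equal in both genotypes cancels in that contrast, called here the genotype contrast. The untreated libraries are in the table that holds LPS, so their distance from LPS lies within 1 table and their distance from poly(I:C) does not.

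LPS is sensed by TLR4, which signals through MYD88 to NF-kB and through TRIF (gene Ticam1) to TBK1, IRF3 and type I interferon. Double-stranded RNA, which poly(I:C) imitates, is sensed by TLR3, which signals through TRIF, and in the cytosol by RIG-I (Ddx58) and MDA5 (Ifih1), which signal through MAVS. TBK1 and its relative IKK-epsilon (Ikbke) phosphorylate IRF3 downstream of both TRIF and MAVS. Secreted interferon then acts through its receptor and a factor that contains IRF9 on the interferon-stimulated response element (ISRE) of a broad set of antiviral genes.

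The first bases before the start site are shown for 3 genes among the highest under poly(I:C) relative to LPS (Cxcl10, Rsad2, Ifit3b), for interferon beta, and for 2 of the genes that were highest under LPS (Il6, Cxcl1), to show the sequence at both ends of the comparison. Each is the 250 bases upstream of the RefSeq start in GRCm38.p6, written 5′ to 3′ on the strand of the gene. Bases just after the start were found in an annotated transcript of the gene for all but Ifit3b, whose start is less certain. Capitals mark matches on either strand to the ISRE core (GAAA, 2 bases of any kind, GAAA) and to the NF-kB consensus.

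Cxcl10: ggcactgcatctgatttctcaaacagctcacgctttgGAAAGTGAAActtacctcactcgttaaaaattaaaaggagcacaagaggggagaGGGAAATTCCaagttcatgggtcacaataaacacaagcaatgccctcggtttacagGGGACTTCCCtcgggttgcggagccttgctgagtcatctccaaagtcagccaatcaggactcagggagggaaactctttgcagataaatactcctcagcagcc
Rsad2: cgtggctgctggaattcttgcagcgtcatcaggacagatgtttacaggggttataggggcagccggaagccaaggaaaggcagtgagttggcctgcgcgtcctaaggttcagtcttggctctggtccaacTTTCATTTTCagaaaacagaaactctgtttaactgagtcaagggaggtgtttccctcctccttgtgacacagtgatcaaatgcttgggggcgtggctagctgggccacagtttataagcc
Ifit3b: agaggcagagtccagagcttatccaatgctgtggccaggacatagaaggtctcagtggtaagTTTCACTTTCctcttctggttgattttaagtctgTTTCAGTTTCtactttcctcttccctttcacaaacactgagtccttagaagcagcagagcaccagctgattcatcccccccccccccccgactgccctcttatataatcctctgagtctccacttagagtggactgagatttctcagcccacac
Ifnb1: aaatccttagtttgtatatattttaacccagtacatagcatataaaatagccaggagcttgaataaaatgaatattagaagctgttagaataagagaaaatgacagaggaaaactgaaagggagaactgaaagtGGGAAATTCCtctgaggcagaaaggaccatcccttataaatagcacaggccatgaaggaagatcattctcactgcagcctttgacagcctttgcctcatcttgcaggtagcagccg
Il6: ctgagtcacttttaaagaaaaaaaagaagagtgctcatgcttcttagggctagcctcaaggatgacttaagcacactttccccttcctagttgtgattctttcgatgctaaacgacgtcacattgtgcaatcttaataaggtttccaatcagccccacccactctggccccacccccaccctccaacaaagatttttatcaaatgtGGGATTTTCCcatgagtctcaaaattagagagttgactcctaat
Cxcl1: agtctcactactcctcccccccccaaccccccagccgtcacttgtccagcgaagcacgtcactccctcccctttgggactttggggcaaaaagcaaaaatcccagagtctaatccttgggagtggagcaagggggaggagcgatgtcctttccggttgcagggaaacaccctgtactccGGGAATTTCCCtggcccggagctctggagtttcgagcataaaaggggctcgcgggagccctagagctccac

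The windows lie at chr5:92348890-92349139 (Cxcl10, minus strand), chr12:26456453-26456702 (Rsad2, minus strand), chr19:34607707-34607956 (Ifit3b, plus strand), chr4:88522795-88523044 (Ifnb1, minus strand), chr5:30012864-30013113 (Il6, plus strand) and chr5:90890995-90891244 (Cxcl1, plus strand). The Cxcl10 window held 1 ISRE core and 2 NF-kB matches. The Rsad2 window held 1 ISRE core and the Ifit3b window 2, all on the opposite strand. The windows of Ifnb1 and Il6 held 1 NF-kB match each, and in Cxcl1 a match on each strand overlaps the other. The ISRE core was present in 2.98% of all 32851 windows in the table, and the NF-kB consensus in 3.9%. Among the 12 genes with the largest differences in each direction, 5 of the 9 with a window on the poly(I:C) side had an ISRE core, against 0 of 11 on the LPS side. NF-kB matches were found in 1 of those 9 and in 3 of those 11. A gene with 2 windows counted if either held a match, so these counts are not on the same footing as the shares of windows. The genes were picked by their differences, and the counts describe them only. A match describes letters in the window and no binding was measured.

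Of 14637 genes tested, 289 (1.97%) were called large and higher under poly(I:C), and 167 (1.14%) large and lower, 456 (3.12%) in all. The median difference over all genes was 0.00 on the log2(TPM + 1) scale. The difference was above 0 for 7333 genes and below 0 for 7300. Both groups were compared at similar breadth: 12848 to 13598 genes reached 1 TPM in KO pIC libraries and 12699 to 13542 in KO LPS libraries. The 50 most abundant genes took 28.5% to 32.5% of all TPM under poly(I:C) and 35.1% to 38.3% under LPS. Mitochondrially encoded genes took 1.65% to 2.78% and 2.31% to 5.89%. The part of these shifts in single-gene differences was not tested. The second scaling removed none of the 456 calls made on the TPM scale alone. Its factors averaged 0.990 in KO pIC and 0.997 in KO LPS libraries, so it could hardly change a call. Quantile normalization kept 266 of the 289 higher and all 167 lower calls.

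Tbk1 itself was low in all 10 libraries. It was 30.8, 25.4, 23.3, 20.4 and 19.0 TPM in KO pIC replicates 1 to 5 and 12.1, 19.4, 17.7, 25.8 and 15.2 TPM in KO LPS. The ranges overlapped, while the WT means were 82.5 TPM under poly(I:C) and 90.9 TPM under LPS. Within each table Tbk1 was lower in KO than in WT, by a log2 difference of -1.77 ± 0.13 (SE) under poly(I:C) and -2.31 ± 0.13 under LPS (limma, adjusted p = 1.17e-09 and 7.7e-13). TPM from floxed exons and from the rest of the gene cannot be separated in these files, and in bulk RNA fewer cells with a transcript and less transcript per cell cannot be told apart.

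All 20 microglia and macrophage identity genes were detected. The most abundant were Ctss (4957 TPM) and C1qa (3631 TPM) under poly(I:C) and Fcer1g (2799 TPM) and Adgre1 (1718 TPM) under LPS. The surface markers Tmem119 (6.60 and 14.3 TPM) and P2ry12 (15.3 and 9.60 TPM) were low. Of the 9 neutrophil, T cell and B cell genes in the tables, 5 were listed at 0 in all 10 libraries, among them Cd8a and Trbc2. An exception was S100a8, a calprotectin subunit abundant in neutrophils, at 3.05, 4.19, 1.74, 11.4 and 2.76 TPM under poly(I:C) and 33.9, 86.5, 43.6, 75.3 and 108 TPM under LPS, a large difference of -3.74 ± 0.31 on the log2(TPM + 1) scale. The 13 tested oligodendrocyte lineage genes summed to 420 to 1137 TPM under poly(I:C) and 211 to 718 TPM under LPS, led by Olig1 (179 and 116). All 13 were higher under poly(I:C), with a median log2 difference of 0.64 and none called large. The 10 tested astrocyte genes summed to 70.7 to 151 TPM and 78.9 to 154 TPM, and the 8 tested neuronal genes had medians of 109 and 69.1 TPM in sum. The part of these cells in the differences below was not tested.

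After Rgs1, the largest higher differences included interferon-stimulated genes such as Ms4a4c and Rsad2, and the chemokine Cxcl10. Cxcl10, a chemokine that draws T cells, was 3528, 3071, 3260, 3248 and 2974 TPM in KO pIC replicates 1 to 5 and 292, 13.4, 82.0, 19.2 and 9.58 TPM in KO LPS. The mean was 38.7-fold higher under poly(I:C), a log2(TPM + 1) difference of 6.42 ± 0.54 (SE). Poly(I:C) libraries lay close together, whereas LPS libraries spanned more than an order of magnitude, with replicate 1 on top and replicate 3 next. Rsad2 (viperin) also had LPS replicate 1 on top and replicate 3 next, at 115, 8.90, 35.7, 11.1 and 9.32 TPM, against 2464, 1314, 1879, 966 and 1600 TPM under poly(I:C). The Rsad2 difference was 6.15 ± 0.58.

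Rgs1, a regulator of G protein signalling in leukocytes, had the largest difference, 7.13 ± 0.45. It was 1901, 846, 1501, 516 and 1209 TPM under poly(I:C) and 5.76, 8.66, 3.60, 6.83 and 11.1 TPM under LPS. Rgs1 was at 95.9 ± 26 TPM (SD, n = 5) in untreated KO cultures, above every LPS library. Ms4a4c, a membrane protein of the MS4A family, was 2043, 1072, 1794, 876 and 1335 TPM under poly(I:C) and 97.3, 5.26, 23.2, 1.47 and 2.56 TPM under LPS, a difference of 7.01 ± 0.59. The other leading genes were Ifit1bl1 (6.74 ± 0.54), Iigp1 (6.57 ± 0.43), Ifit2 (6.54 ± 0.53), Cxcl11 (6.21 ± 0.45), Cxcl9 (5.95 ± 0.37), Tgtp2 (5.94 ± 0.39), Cmpk2 (5.42 ± 0.55) and Ifit3b (5.39 ± 0.42). Ifit proteins bind viral RNA, Iigp1 and Tgtp2 are immunity-related GTPases that act on pathogen vacuoles, and Cxcl9 and Cxcl11 share the receptor of Cxcl10.

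**Figure D1:**
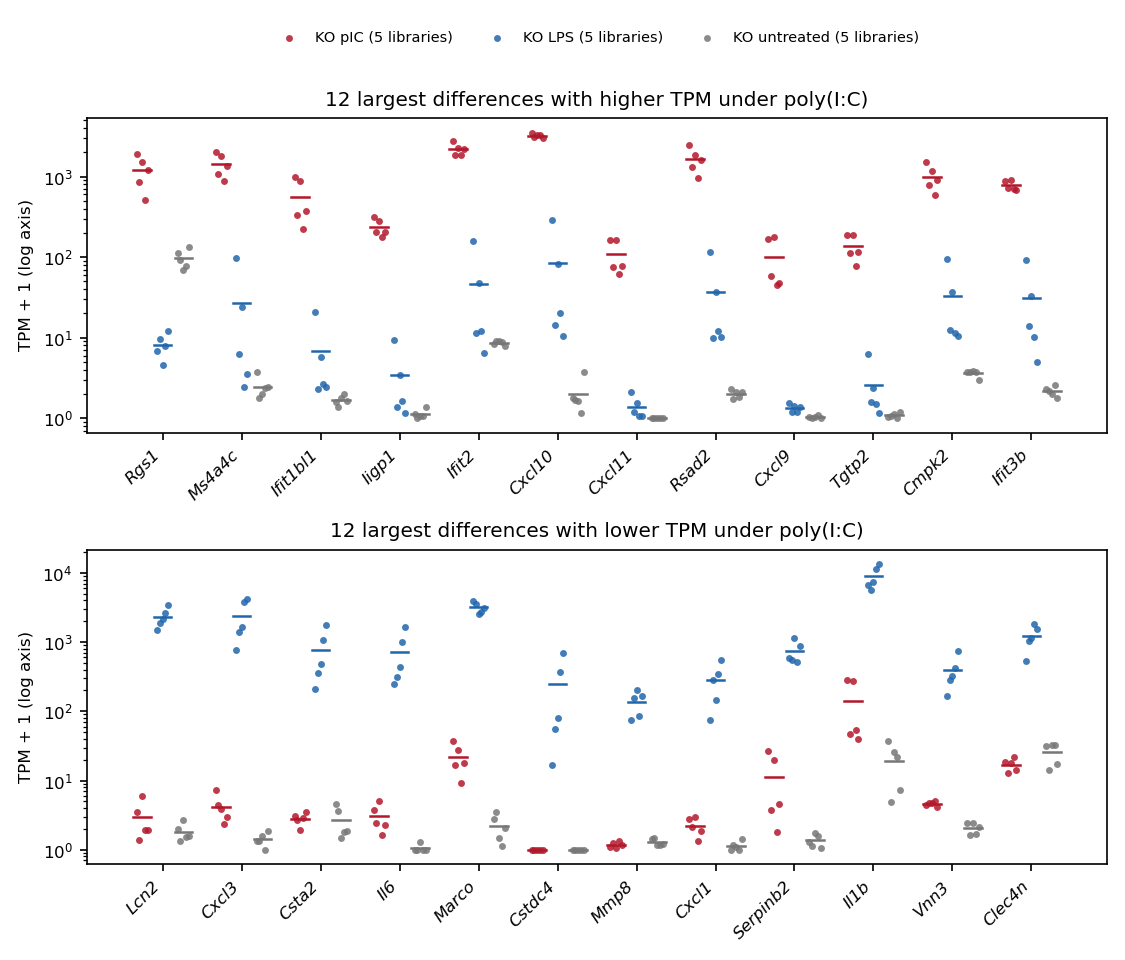
TPM + 1 on a log axis for the 12 genes with the largest higher (top) and lower (bottom) differences under poly(I:C), by rule. Each point is a KO library (red, poly(I:C); blue, LPS; grey, untreated; 5 each) and each bar a group mean; KO LPS replicates 1 and 3 stand above the other LPS libraries for Cxcl10 (292 and 82.0 TPM).

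At the other end stood neutrophil-attracting chemokines, interleukins and acute phase genes. Lcn2 (lipocalin 2, which binds bacterial siderophores) was 2.51, 0.363, 5.04, 0.951 and 0.942 TPM under poly(I:C) and 1469, 1885, 2177, 2672 and 3413 TPM under LPS, a log2 difference of -9.77 ± 0.34. Il6 was 2.69, 1.42, 4.10, 0.652 and 1.29 TPM under poly(I:C) and 245, 312, 437, 988 and 1653 TPM under LPS, a difference of -7.64 ± 0.39. Every LPS library exceeded every poly(I:C) library by more than an order of magnitude for both genes, and for Il6 replicates 4 and 5 were the high LPS libraries.

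Il1b was the most abundant of the genes with the largest lower differences. It was 284, 46.2, 275, 52.5 and 38.3 TPM under poly(I:C) and 6629, 5703, 7333, 11280 and 13400 TPM under LPS, a difference of -6.46 ± 0.47. Poly(I:C) replicates 1 and 3 stood above the other 3 for this gene. Cxcl3 (-8.98 ± 0.49) and Cxcl1 (-6.73 ± 0.49) are ligands of the neutrophil receptor CXCR2. Marco, a scavenger receptor for bacteria, had a mean of 20.7 ± 10.9 TPM (SD, n = 5) against 3165 ± 554 TPM. Serpinb2, Vnn3, Mmp8 and Clec4n (dectin-2, which binds fungal sugars) also had differences between -6.07 and -6.75. The stefin genes Csta2 and Cstdc4 belong to a family of close copies, so reads may be split among them. Cstdc4 was listed at 0 in all 5 poly(I:C) libraries and at 15.7 to 698 TPM under LPS, and no fold is given.

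By gene group, all 56 tested interferon-stimulated genes were higher under poly(I:C), 32 of them large, with a median difference of 2.30. All 16 guanylate-binding proteins and immunity-related GTPases were higher, 11 large (median 2.48), as were the 24 MHC class I presentation genes, 10 large (median 1.91). The class I genes with the largest differences were H2-Q6 (5.36 ± 0.32), H2-Q7 (4.53 ± 0.31), H2-Q5 (3.46 ± 0.27) and H2-Q4 (3.08 ± 0.19), near-identical genes whose reads the counting may share out. The size was uneven within the antiviral group. Oas3, which makes 2-5A to activate RNase L, was 301 against 21.7 TPM in the mean, whereas Irf9, a DNA-binding factor of the interferon response, was 66.0 against 49.5 TPM. The untreated mean lay below both stimulus means for 56 of 56 interferon-stimulated genes, against 2335 of all 14637 genes tested. Single LPS libraries did not always lie above the untreated ones. Ifit2 was 5.47 TPM in LPS replicate 5, against 6.81 to 8.08 TPM untreated. Ms4a4c was 1.47 and 2.56 TPM in LPS replicates 4 and 5, against 0.79 to 2.79 TPM untreated.

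MHC class II genes did not share this pattern. Of 11 tested, 6 were higher and 5 lower, with a median of 0.17 and 1 large, H2-Eb1. It was 10.9, 12.6, 9.79, 2.70 and 8.36 TPM under poly(I:C) and 0.561 to 1.87 TPM under LPS. Cd74, the invariant chain, was 57.5 and 66.1 TPM in the mean.

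**Figure D2:**
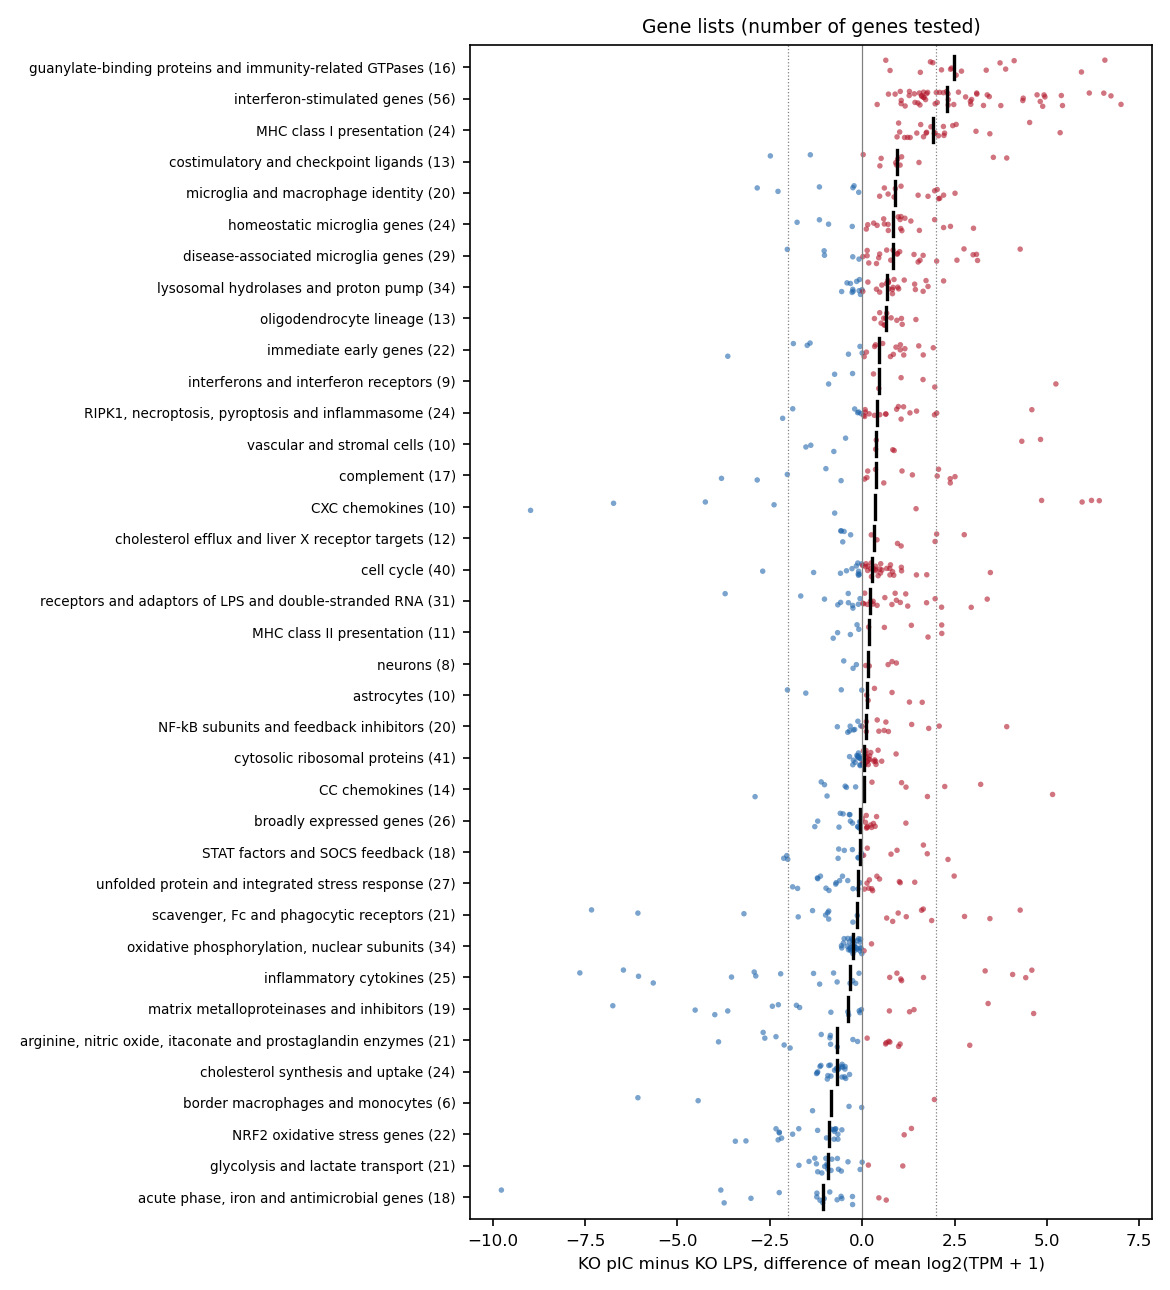
KO poly(I:C) minus KO LPS difference in mean log2(TPM + 1) for each tested gene (points) of each list, with the list median (black bar) and the size of 2 dotted. Interferon-stimulated genes, GTPases and MHC class I lie wholly above 0 (medians 2.30, 2.48 and 1.91), cholesterol synthesis wholly below (median -0.68), and cytokines and CXC chemokines extend far in both directions.

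Among interferons, Ifnb1 was present under poly(I:C) and close to 0 under LPS. It was 49.7, 51.3, 63.3, 34.3 and 34.1 TPM in KO pIC replicates 1 to 5 and 0.499, 0.196, 0.337, 0.127 and 0 TPM in KO LPS, a difference of 5.24 ± 0.28. The 5 LPS values were all under 1 TPM. The WT means were close to these, 46.7 TPM under poly(I:C) and 0.776 TPM under LPS, and the genotype contrast was 0.56 ± 0.39 (limma, adjusted p = 0.339). Ifna5 was at 3.47 TPM and Ifna2 at 2.17 TPM under poly(I:C), and both were listed at 0 under LPS. Of the 9 interferon and receptor genes tested, 1 was called large, Ifnb1. The receptor chains Ifnar1 (60.8 and 117 TPM) and Ifnar2 (121 and 203 TPM) had lower means under poly(I:C).

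Among sensors, Tlr3 was 166, 118, 144, 132 and 107 TPM under poly(I:C) and 39.6, 27.1, 35.9, 27.0 and 19.4 TPM under LPS, a difference of 2.15 ± 0.13. Tlr4 differed less, with means of 29.7 and 42.8 TPM (-0.37 ± 0.21) and overlapping libraries. Of 31 receptors and adaptors, 3 were large and higher (Irf7, Irf1, Tlr3) and 1 large and lower. The latter was Irak3, an inhibitor of MYD88 signalling, at 10.9 to 18.2 TPM under poly(I:C) and 184 to 203 TPM under LPS, a difference of -3.71 ± 0.13. Means of the TBK1 relative Ikbke were 160 and 154 TPM. The median of the whole list was 0.22.

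Inflammatory cytokines split by member. Of 25 tested, 4 were large and higher and 7 large and lower, with a median of -0.33. The higher ones were Il12b (77.3 against 7.21 TPM), Il15 (142 against 8.24), Il27 (57.3 against 1.56) and Tnfsf10, the death ligand TRAIL (45.3 against 1.18). The lower ones included Il1a (-6.06 ± 0.42) and Csf3, which encodes the granulocyte growth factor (-5.66 ± 0.31). Tnf was between them, at 456 against 285 TPM. CXC chemokines likewise had 4 members large and higher and 4 large and lower out of 10. The B cell chemokine Cxcl13 was on the higher side, at 379 against 34.3 TPM. CC chemokines had 2 of 14 large and higher, Ccl12 (5.15 ± 0.55) and Ccl5 (3.21 ± 0.31), and 1 large and lower. Ccl5, a T cell and monocyte attractant, was 20260, 10040, 19110, 4714 and 11500 TPM under poly(I:C) and 2895, 1059, 1073, 617 and 1539 TPM under LPS, so the lowest poly(I:C) library (replicate 4) was 4714 against a highest LPS library of 2895. Ccl17 was the lower one. It was listed at 0 in all 5 poly(I:C) libraries and at 0.572, 5.60, 1.74, 12.0 and 62.0 TPM under LPS. It lost the call without LPS replicate 5, where the log2 difference was still -2.13 but the LPS mean fell below 5 TPM.

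Of 20 NF-kB genes, 2 were large and higher, Cd40 (3.91 ± 0.25) and Nfkbie (2.09 ± 0.13). The costimulatory molecule Cd83 was also large and higher, at 141 to 242 TPM against 8.01 to 34.6 TPM, near its untreated mean of 170 TPM. Of the STAT and SOCS genes, Stat2 was large and higher (2.32 ± 0.19), and the feedback inhibitors Socs3 (-2.12 ± 0.18) and Socs1 (-2.04 ± 0.20) large and lower. The calls for Nfkbie and both Socs genes sit at the edge of the size threshold: without poly(I:C) replicate 1 Nfkbie was 1.98, without poly(I:C) replicate 5 Socs3 was -1.99, and without poly(I:C) replicate 4 Socs1 was -1.92. Casp4, the sensor caspase for cytosolic LPS (2.02 ± 0.16), and Ch25h, which makes 25-hydroxycholesterol (2.02 ± 0.16), lay just inside it as well, with lowest values of 1.92 and 1.89 when single libraries were left out. Gsdme, a gasdermin (-2.15 ± 0.26), was -1.93 without LPS replicate 2.

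Acute phase and antimicrobial genes were lower in 16 of 18 with 5 large (median -1.05; all genes: 7300 of 14637 lower, 1.14% large and lower). Saa3, a serum amyloid A protein, was among the large ones: 6233, 3195, 6097, 3091 and 4575 TPM under poly(I:C) and 99250, 70100, 80060, 36260 and 48950 TPM under LPS. At these levels 1 gene filled 3.63% to 9.93% of the LPS libraries. Of 21 genes of arginine, nitric oxide, itaconate and prostaglandin metabolism, 5 were large and lower and 0 large and higher, among them Arg1 (-3.89 ± 0.55) and Slc7a2, an arginine transporter (-2.64 ± 0.43). Among matrix genes, Plau, the urokinase protease, was large and higher at 291 to 463 TPM against 9.14 to 19.7 TPM. Mmp12 (-4.52 ± 0.63) and Mmp9 (-3.99 ± 0.42) were lower.

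Glycolysis genes were lower in 19 of 21, none large, with a median of -0.93 (all genes: 7300 of 14637 lower). Eno1 (389 against 1054 TPM) and the lactate exporter Slc16a3 (57.9 against 184 TPM) were examples, and Hk3 was an exception (201 against 93.5 TPM). All 24 cholesterol synthesis and uptake genes were lower, none large, with a median of -0.68. The untreated mean was above both stimuli for 23 of these 24, and for 9742 of all 14637 genes tested. Nuclear oxidative phosphorylation genes were lower in 32 of 34 with a median of -0.25. Broadly expressed control genes had a median of -0.05 with 12 of 26 higher and 14 lower, and cytosolic ribosomal proteins a median of 0.05, which was -0.15 after quantile normalization.

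Genes listed for NRF2, the oxidative stress factor, were lower in 20 of 22, 7 of them large (median -0.90). The all-gene figures were 7300 of 14637 lower and 1.14% large and lower. Nqo1, a quinone reductase, was 1.22, 0.971, 1.44, 0.847 and 0.975 TPM under poly(I:C) and 8.78, 35.1, 21.4, 21.2 and 31.8 TPM under LPS, a difference of -3.43 ± 0.34. Prdx6, a peroxidase, was 115, 117, 97.2, 88.8 and 95.5 TPM against 176, 648, 324, 975 and 846 TPM, with LPS replicate 1 lowest for both. Gsta3, a glutathione transferase, was at most 0.572 TPM under poly(I:C) and 3.99 to 20.7 TPM under LPS. The poly(I:C) levels of these 3 genes were near the untreated means of 1.54, 123 and 0.214 TPM. Nfe2l2, which encodes NRF2, had the opposite sign, at 343 against 136 TPM.

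Microglial state genes were mostly higher under poly(I:C). Of 24 homeostatic genes 20 were higher, 3 large (median 0.84), and of 29 disease-associated microglia genes 24 were higher, 7 large (median 0.84). Among all 14637 genes tested 7333 were higher, and 1.97% were large and higher. Tgfbr1, the TGF-beta receptor that maintains microglial identity, was 129, 219, 142, 299 and 156 TPM under poly(I:C) and 13.5, 26.4, 23.2, 26.0 and 20.5 TPM under LPS, with an untreated mean of 169 TPM. For 17 of the 24 homeostatic genes the untreated mean was above both stimuli, a share near that of all genes tested (9742 of 14637).

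Axl, a receptor for dying cells, was 592, 799, 527, 492 and 772 TPM against 39.5, 43.1, 26.6, 24.3 and 26.9 TPM, a difference of 4.28 ± 0.29, with the untreated mean (149 TPM) between them. Igf1 (3.12 ± 0.31), Gpnmb (3.10 ± 0.43) and the cathepsin inhibitor Cst7 (3.00 ± 0.24) followed. Exceptions among identity genes were Itgam, the CD11b integrin, at 73.5 to 152 TPM against 659 to 848 TPM, and Adgre1 (F4/80) at 329 to 373 TPM against 1338 to 1999 TPM. Cx3cr1, whose locus carries the Cre, was 59.3, 215, 71.8, 549 and 158 TPM against 47.3, 132, 53.8, 94.5 and 63.5 TPM. Its libraries overlapped (1.05 ± 0.44). C1q genes were higher: C1qc was 2429 to 2989 TPM against 202 to 1206 TPM.

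**Figure D3:**
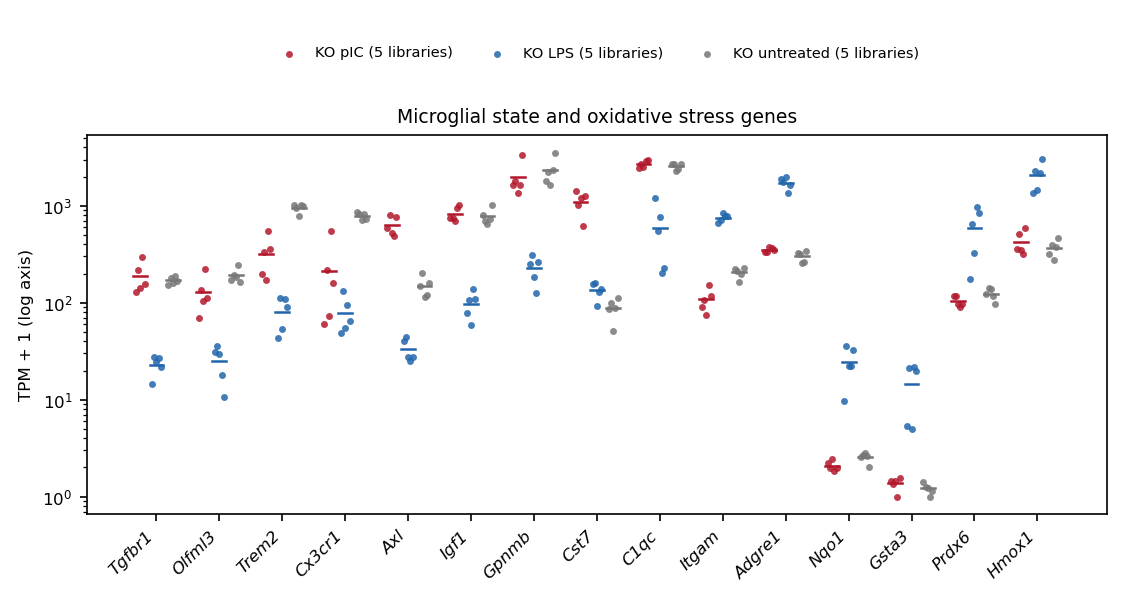
TPM + 1 on a log axis for 15 genes of microglial state and oxidative stress in KO libraries (red, poly(I:C); blue, LPS; grey, untreated; points are libraries, bars means). Tgfbr1, Igf1 and Gpnmb lie near the untreated level under poly(I:C) and below it under LPS, whereas Itgam, Adgre1, Nqo1 and Prdx6 are highest under LPS.

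Kdr and Flt1, receptors for VEGF that are listed as vascular markers, were large and higher. Kdr was 47.3, 42.2, 57.1, 41.8 and 41.0 TPM against 0.429 to 0.869 TPM, and Flt1 was 26.6 to 48.2 against 0.669 to 1.53 TPM. Other vascular genes were low in both groups (Cdh5 2.11 and 0.67 TPM, Pecam1 0.23 and 0.75 TPM in the mean). The 6 tested border macrophage and monocyte genes summed to 695 to 810 TPM under poly(I:C) and 1956 to 3052 TPM under LPS. Ms4a7 (657 TPM) made up most of the sum under poly(I:C), and Pf4 (1005 TPM, 47.4 under poly(I:C)) and Clec4n (1212 TPM, 16.0 under poly(I:C)) most of it under LPS, and 6 of the 12 did not pass the filter on low values.

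The genotype contrast asked which of these differences were larger or smaller in KO than in WT. Over all genes, limma called 1284 contrasts above 0 (8.77%) and 2108 below (14.4%) at an adjusted p of 0.05. The split depends on scaling, with 1778 above and 1461 below after median-ratio scaling, which raised the median contrast of all genes from -0.11 to 0.02. Of the 289 genes large and higher under poly(I:C) in KO, 192 had a contrast above 0 and 9 below. Their median poly(I:C) minus LPS difference was 2.69 in KO, 1.77 in HET and 1.41 in WT, and 110 and 87 of them were large in HET and WT. Of the 167 large and lower genes, 26 had a contrast above 0 and 56 below, the medians were -2.79, -2.62 and -2.45, and 107 and 95 were large in HET and WT. These genes were chosen by their KO value, which enters the contrast, so the counts describe them only.

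**Figure D4:**
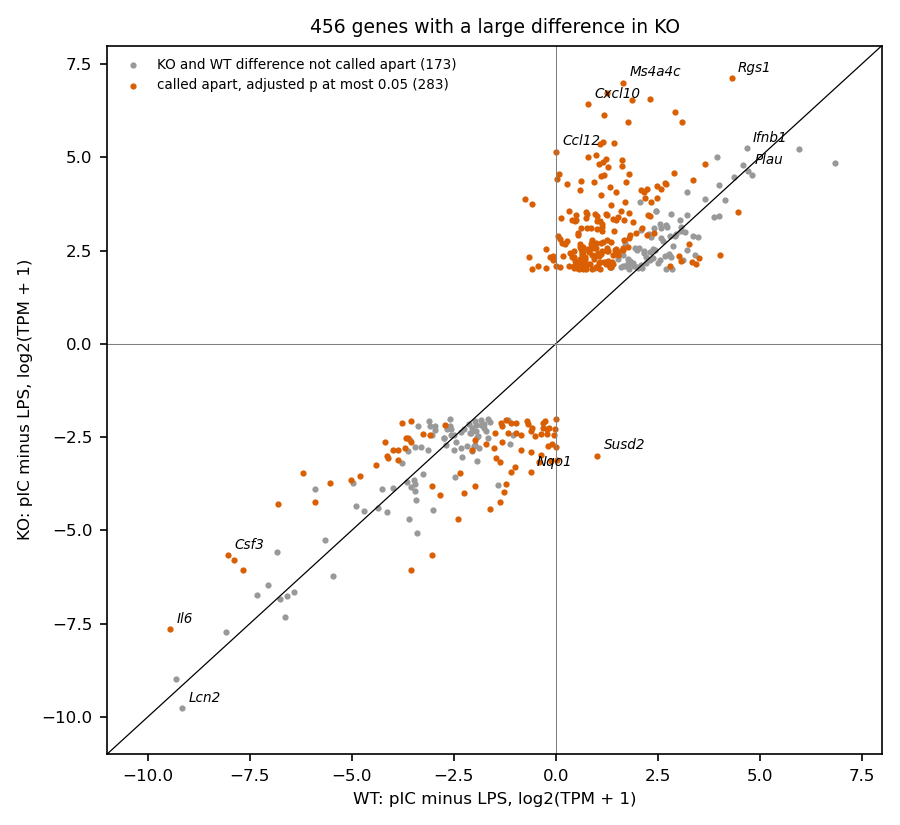
Poly(I:C) minus LPS difference in mean log2(TPM + 1) in WT (x axis) and KO (y axis) for the 456 genes large in KO; the diagonal marks equal differences, and orange marks genes whose KO and WT differences were called apart by limma. Points in the upper right lie mostly above the diagonal, including Cxcl10 (6.42 in KO, 0.80 in WT), whereas Lcn2 (-9.77 and -9.16) lies near it.

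For interferon-stimulated genes the contrast was above 0 in 56 of 56 against WT and in 54 of 56 against HET, which carries Cre like KO (all genes: 7.06% above and 10.5% below against HET). Within the tables, KO was below WT under LPS for 56 of 56, while under poly(I:C) 1 was called above WT and 0 below, where the all-gene shares were 2.63% above and 6.64% below, and under LPS 14.1% above and 14.2% below. Cxcl10 illustrates this, with WT means of 2786 TPM under poly(I:C) and 1676 TPM under LPS beside KO means of 3216 and 83.2 TPM. Its contrast was 5.62 ± 0.76 against WT and 4.99 against HET (adjusted p = 3.73e-06 and 2.96e-05). Guanylate-binding proteins and GTPases had 12 of 16 contrasts above 0, and MHC class I 21 of 24. H2-Q6 also fell below WT under poly(I:C), by 1.25 on the log2 scale (adjusted p = 0.0131), besides -5.52 under LPS.

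Ccl7, a monocyte attractant, had the largest contrast, 5.98 ± 0.77 (adjusted p = 1.88e-06). In KO it was 62.4, 15.4, 46.6, 10.1 and 19.2 TPM under poly(I:C) and 65.8, 3.12, 19.8, 4.26 and 8.12 TPM under LPS, overlapping, whereas WT means were 19.9 and 637 TPM. Ccl2 behaved alike, at 242 and 142 TPM in KO and a WT LPS mean of 2967 TPM (contrast 5.10). Ifit1bl1 (5.47), Slfn4 (5.35), Ms4a4c (5.35) and the collagenase Mmp13 (5.30) followed. Mmp13 was lower under poly(I:C) in every genotype, with differences of -2.43 in KO (77.3 against 414 TPM) and -7.74 in WT (24.5 against 5461 TPM).

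Contrasts below 0 were led by Gda, guanine deaminase, at -4.04 ± 0.35 (adjusted p = 9.81e-09). Gda was 39.3, 29.3, 37.4, 16.5 and 32.4 TPM under poly(I:C) and 15.8, 38.1, 33.3, 31.7 and 20.2 TPM under LPS in KO, overlapping, against WT means of 44.5 and 1.42 TPM. Ccl22, a ligand of CCR4 (-4.03), Susd2 (-4.02), Treml4 (-3.41) and Clmp (-3.14) were also in this set, each with KO above WT under LPS. The Ccl22 contrast against HET was -2.04 and did not pass (adjusted p = 0.152). The mitochondrial tRNA mt-Tm (-3.51) was listed at 0 in all 5 KO pIC libraries and in 2 of 5 KO LPS libraries.

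**Figure D5:**
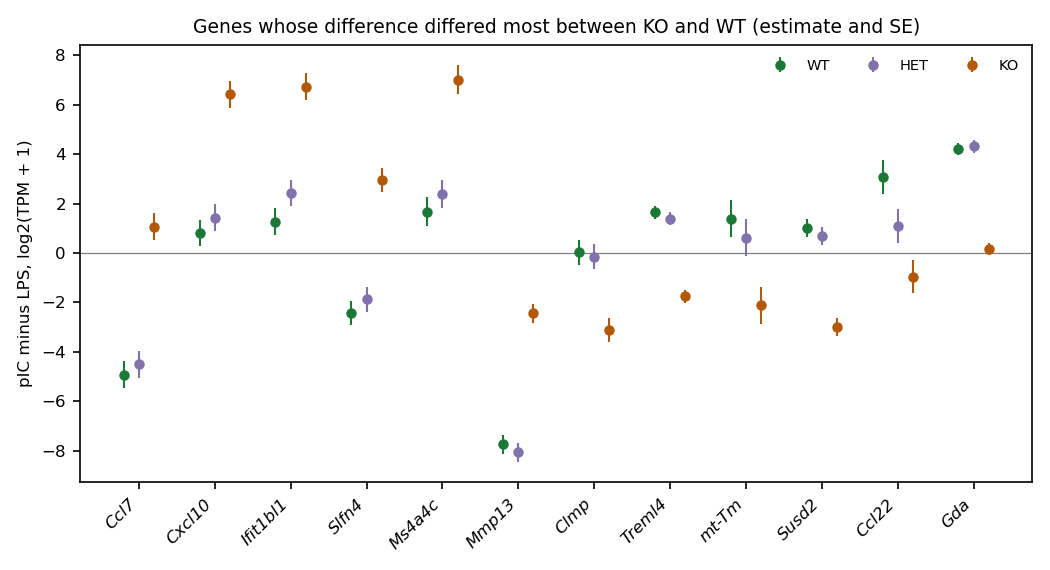
Poly(I:C) minus LPS difference in log2(TPM + 1), with SE from limma, in WT, HET and KO for the 6 highest and 6 lowest genotype contrasts. KO stands apart from HET and WT for Ccl7 (-4.92 in WT, -4.50 in HET, 1.07 in KO) and Gda (4.20, 4.32 and 0.16).

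Several leading differences were not called apart between KO and WT. The contrast did not pass for Lcn2 (-0.61 ± 0.48, adjusted p = 0.414), Cxcl3, Cxcl1, Marco, Il1b, Irak3, Plau, Tgfbr1, Igf1 and Gpnmb, which does not show that the differences were equal. For Il6 it was 1.81 ± 0.55 (adjusted p = 0.0167), with KO below WT under LPS by a log2 difference of -1.71. Of 25 cytokines 16 had a contrast above 0 and 0 below, among them Tnf (2.36) and Il10 (3.03). Without KO LPS replicate 1 the cytokine counts were 14 above and 2 below. Glycolysis had 5 above and 1 below of 21.

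The genes listed for NRF2 had 13 of 22 contrasts below 0 and 0 above, with KO above WT under LPS for 16 and below for 1. After median-ratio scaling the contrasts were 9 below and 1 above, with KO above WT under LPS for 13. Prdx6 was 594 TPM in KO and 102 TPM in WT under LPS but 103 and 100 TPM under poly(I:C), a contrast of -2.26 ± 0.39 (adjusted p = 7.87e-05). Nqo1 (-2.82) and Gsta3 (-3.04) were alike, whereas Hmox1, heme oxygenase, was 2058 TPM in KO and 1640 TPM in WT under LPS with a contrast of -0.18 (adjusted p = 0.884). Cholesterol synthesis had 15 of 24 contrasts below 0, with KO above WT under LPS for 24 of 24 and under poly(I:C) for 1. Oxidative phosphorylation had 26 of 34 below 0, which became 15 after median-ratio scaling and 28 after quantile normalization. Ribosomal proteins had 15 of 41 below 0, which became 4 and 25. Homeostatic genes had 7 of 24 below and 3 above (4 and 4 after median-ratio scaling), and MHC class II 6 of 11 below and 1 above (4 and 1 after median-ratio scaling, 3 and 0 after quantile normalization).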

How the data were processed

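RNA was sequenced from primary mouse microglia after a Kapa mRNA Hyperprep library of 300 ng RNA, per the labels' protocols. The authors deposited TPM values per gene in 2 tables of 32070 genes each, joined here on the gene symbol. Per the submitters' processing notes, the genome was mm10 and the tools were DRAGEN, Picard, Trimmomatic and FastQC. Versions, annotation and strand setting are not given in the sources used here. TPM keeps no read depth, so no counting interval can be given.

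Columns were matched to samples by library number, which runs from 1 to 60 across both tables. Genes reaching 1 TPM in 4 or more of 30 libraries (KO, HET and WT under poly(I:C) and LPS) were tested, on log2(TPM + 1), and fold differences of low genes are understated on that scale. SEs and tests came from 1 limma 3.58.1 fit over the 6 groups in R 4.3.3, with Benjamini-Hochberg adjustment at 0.05 over all 14637 genes. Simulated data of 14637 genes with independent noise held changes of each size in 100 genes, all above about 5 TPM on average. The KO minus WT contrast recovered 75% of log2 changes of 1 and 99% of changes of 2. Recovery at lower levels was not tested. Median-ratio size factors used 14218 genes. Where p-values are given they measure the spread between cultures within these groups. Summaries used pandas 2.3.3 and numpy 2.4.6.

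The genes and gene lists were chosen with earlier results of these data known. Named genes were the 12 highest and 12 lowest large differences, up to 4 large members of each list by size, the 6 highest and 6 lowest called genotype contrasts with at least 5 TPM in a group (predicted genes, RIKEN clones and pseudogenes left out), and Tbk1, Cx3cr1, Tlr3, Tlr4 and Ifnb1. Other genes of the lists, given by their levels, were named after their values were seen. Promoter windows were RefSeq sequences of GRCm38.p6, matched for 69.9% of tested genes, 70.9% of the large higher and 76.6% of the large lower genes. No motif share over all large genes is given. Alternatives were other scalings, pseudocounts, filters and sizes, single libraries left out and a replicate block.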

Additional observations from a re-analysis of the deposited data

Results flagged for a closer look

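KO LPS replicate 1 stood far above the other 4 KO LPS libraries for 7 of the genes with the largest higher differences, with 97.3 TPM for Ms4a4c, 19.6 for Ifit1bl1, 8.46 for Iigp1, 156 for Ifit2, 292 for Cxcl10, 115 for Rsad2 and 5.31 for Tgtp2. The gap rule used marks about 1 in 20 groups by chance, and these 7 genes come from the same library. The same library had the lowest Tbk1 of the 10 (12.1 TPM) and the lowest Il6 (245 TPM) and Prdx6 (176 TPM) among the LPS libraries. Without it the log2 differences were 7.81 for Ms4a4c, 7.29 for Ifit1bl1, 7.06 for Iigp1, 7.23 for Ifit2, 7.16 for Cxcl10, 6.75 for Rsad2 and 6.33 for Tgtp2, all larger than with it. Interferon-stimulated genes with a contrast above 0 numbered 56 of 56 without it as well.

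The 12 genes named by rule had the most extreme of the called limma contrasts between KO and WT. That all 12 were called follows from this choice. Contrasts were 5.98 for Ccl7, 5.62 for Cxcl10, 5.47 for Ifit1bl1, 5.35 for Slfn4, 5.35 for Ms4a4c and 5.30 for Mmp13. They were -4.04 for Gda, -4.03 for Ccl22, -4.02 for Susd2, -3.51 for mt-Tm, -3.41 for Treml4 and -3.14 for Clmp.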

How the results depend on the processing

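The 289 higher and 167 lower large differences became 792 and 473 at a size of at least 1 and 115 and 69 at a size of at least 3. Leaving out 1 KO library at a time gave 271 to 323 higher and 157 to 178 lower, and 265 to 284 and 153 to 164 of the original genes were called again. Leaving out KO pIC 4 and KO LPS 1 together, an alternative chosen after seeing the data, gave 338 and 178, with 281 and 159 of the original genes. Quantile normalization gave 266 and 172. Of 1246 alternative values for 89 named large differences, 1224 kept their call, 22 lost it and 0 reversed. All 324 alternative values of the 12 named contrasts kept theirs. Leave-one-out counts of contrasts against WT were 1184 to 1308 above 0 and 1735 to 2499 below. Against HET 1034 were above 0 (7.06%) and 1530 below (10.5%), and 1345 and 1101 after median-ratio scaling. Quantile normalization gave 1599 and 2015 against WT. KO against WT under poly(I:C) was called above 0 for 385 genes and below for 972, but for 631 and 347 after median-ratio scaling. Under quantile normalization the median difference of oxidative phosphorylation was -0.39 and of ribosomal proteins -0.15. The cause of these shifts was not tested.

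Same-numbered KO pIC and KO LPS libraries correlated at 0.0937 to 0.313 in their deviations from the group means. As 1 pair was below 0.1, the numbers were not taken as a pairing, and the SEs and tests in the Results do not use them. Every poly(I:C) library nonetheless correlated best with its own number under LPS, in KO, WT and HET alike, a hint from the data. With a replicate block the contrast against WT had 1519 calls above 0 and 2681 below, KO against WT under poly(I:C) 1505 below, and the large differences were 297 and 172, all 456 original genes included. A block nested in genotype, also added after seeing the data, gave 1665 and 2932. TPM keeps no depth, so precision at low levels is unknown.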
